A study of Mus musculus with 26 samples.

Results

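Shared distal peaks are regions of open chromatin that were found in the frontal cortex of both genotypes and that lie away from gene starts. They were chosen as peaks of the Wild-Type list that overlapped a peak of the Mutant list by 1 bp or more and lay more than 1000 bp from the start of every gene in the count tables. Of the 19272 peaks of the Wild-Type list, 8152 met this rule, beside 30862 peaks in the Mutant list. A further 9028 Wild-Type peaks overlapped a Mutant peak within 1 kb of a gene start, and 1670 distal Wild-Type peaks overlapped none. Overlap, width and position describe these peaks and were not tested, since the peak lists themselves chose the members.

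The study compared adolescent mouse littermates with a frameshift on 1 allele of Adnp (labelled Mutant here, HET in the protocols) and littermates with the unaltered gene (Wild-Type). Adnp encodes a zinc-finger protein of chromatin complexes. RNA was sequenced from the frontal cortex of 7 Mutant and 7 Wild-Type mice, with library totals from 33280785 to 47079906 counts in Mutant and from 32814841 to 48291175 in Wild-Type. ATAC-seq, in which a transposase cuts and tags accessible DNA, was given as 1 merged peak list per genotype, and the 1 PAT and 1 Control ATAC-seq sample and the 4 Hi-C samples were not analysed here. The lists hold coordinates without heights or depths, and 1 list per genotype leaves no replicate check of any peak.

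In neurons, much of the DNA that opens away from promoters belongs to enhancers, stretches bound by transcription factors that can raise the output of a gene at a distance. Such DNA also includes sites of CTCF, promoters of alternative transcripts and promoters of noncoding RNAs, and ATAC-seq alone does not separate these kinds. Activity-regulated genes such as Fos and Arc, which neurons switch on after synaptic stimulation, are known for having many enhancers around them.

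A share of the members held a transcript start of the RefSeq annotation. Every member lay off the starts in the count tables, which give 1 start per gene (the outermost one). Whether the RefSeq starts at members were main or alternative starts of their genes was not tested. RefSeq promoter windows (250 bases before to 50 bases after a transcript start, build GRCm38.p6) were overlapped by 694 of the 8152 members (8.51%), and 595 of these held the transcript start itself. The share was 73.4% among shared peaks within 1 kb of a gene start, 2.16% among distal Wild-Type peaks with no overlap and 2.07% among distal Mutant peaks with no overlap. The 694 peaks lay at 812 windows of 705 genes. Printed next are the 250 bases before the transcript start at members inside genes of synaptic signalling and activity response, 5′ to 3′ on the strand of the gene, with every match to TGACGT (the core of a cAMP response element, either strand) or GGGCGG (a GC box, either strand) in capitals. These genes and the next ones were picked after the peaks were seen.
Homer1: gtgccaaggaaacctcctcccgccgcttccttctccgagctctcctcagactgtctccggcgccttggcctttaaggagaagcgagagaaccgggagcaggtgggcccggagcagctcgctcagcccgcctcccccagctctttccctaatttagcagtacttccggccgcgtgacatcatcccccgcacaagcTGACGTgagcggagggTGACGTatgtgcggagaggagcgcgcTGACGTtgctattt
Nr4a1: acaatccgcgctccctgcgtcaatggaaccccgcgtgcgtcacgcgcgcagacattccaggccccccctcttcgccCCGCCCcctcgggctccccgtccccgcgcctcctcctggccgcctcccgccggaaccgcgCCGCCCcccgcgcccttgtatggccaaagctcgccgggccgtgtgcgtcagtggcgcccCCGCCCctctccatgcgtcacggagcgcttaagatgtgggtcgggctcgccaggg
Nrxn3: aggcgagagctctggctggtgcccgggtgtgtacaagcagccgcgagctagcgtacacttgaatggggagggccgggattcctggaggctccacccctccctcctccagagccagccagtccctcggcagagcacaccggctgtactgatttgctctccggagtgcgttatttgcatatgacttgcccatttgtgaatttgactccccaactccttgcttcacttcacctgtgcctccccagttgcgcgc

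The Homer1 window (chr13:93303507-93303756, plus strand) lies inside a member of 738 bp in the Wild-Type list and 716 bp in the Mutant list, 4122 bp into the gene, and holds 3 TGACGT matches. Homer1 encodes a scaffold of the postsynaptic density with activity-induced short forms. The Nr4a1 window (chr15:101266596-101266845, plus strand) lies inside a member of 672 bp and 660 bp and holds 3 GGGCGG matches. Nr4a1 encodes an orphan nuclear receptor induced by neuronal activity. The Nrxn3 window (chr12:89812233-89812482, plus strand) lies 1089607 bp downstream of the outermost start of Nrxn3, the gene of a presynaptic adhesion protein with long and short forms, in a member of 726 bp and 943 bp. It holds neither motif, and its member was assigned by distance to Gm26512 rather than to Nrxn3.

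The second set comes from a cohesin gene, a neuronal transcription factor, a cytoskeletal adaptor and a pair of abundantly expressed genes, with matches to the basal promoter motif TATAAA in capitals as well.
Stag1: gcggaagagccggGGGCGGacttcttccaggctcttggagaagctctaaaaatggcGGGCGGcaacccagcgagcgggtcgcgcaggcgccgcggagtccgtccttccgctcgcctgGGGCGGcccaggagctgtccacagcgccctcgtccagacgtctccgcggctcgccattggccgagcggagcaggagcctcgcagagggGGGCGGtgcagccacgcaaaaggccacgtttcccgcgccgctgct
Lhx2: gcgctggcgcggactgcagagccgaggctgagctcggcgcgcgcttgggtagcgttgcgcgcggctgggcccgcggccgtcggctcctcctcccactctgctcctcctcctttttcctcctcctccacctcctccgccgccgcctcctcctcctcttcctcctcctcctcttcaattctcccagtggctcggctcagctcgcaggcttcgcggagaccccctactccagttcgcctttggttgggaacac
Ank2: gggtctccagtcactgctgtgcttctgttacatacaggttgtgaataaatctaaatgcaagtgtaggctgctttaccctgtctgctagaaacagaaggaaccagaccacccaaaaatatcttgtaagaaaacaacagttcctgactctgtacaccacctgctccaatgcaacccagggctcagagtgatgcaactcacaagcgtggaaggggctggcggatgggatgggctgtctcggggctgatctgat
Ndrg4: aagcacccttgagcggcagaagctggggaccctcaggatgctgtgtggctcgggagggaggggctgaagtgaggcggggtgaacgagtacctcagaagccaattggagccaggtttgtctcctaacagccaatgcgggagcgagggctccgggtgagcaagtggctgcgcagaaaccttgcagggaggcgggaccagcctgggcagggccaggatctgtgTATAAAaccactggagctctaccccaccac
Eef1a1: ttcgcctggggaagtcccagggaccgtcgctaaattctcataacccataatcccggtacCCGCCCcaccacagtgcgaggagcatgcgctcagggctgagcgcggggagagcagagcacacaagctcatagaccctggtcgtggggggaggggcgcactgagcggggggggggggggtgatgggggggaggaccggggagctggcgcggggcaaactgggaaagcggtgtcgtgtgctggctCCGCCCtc

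The Stag1 window (chr9:100643198-100643447, plus strand) holds 4 GGGCGG matches, in a member of 979 bp and 890 bp that lies 45099 bp from the start of Stag1 in the count tables. The Ank2 window (chr3:127409059-127409308, minus strand) has 49.6% G and C, against 71.2% at Stag1, and holds none of the motifs in capitals. The Lhx2 window (chr2:38351058-38351307, plus strand) has 68.4% and holds none either. The Ndrg4 window (chr8:95702806-95703055, plus strand) holds 1 TATAAA match in a member that was 619 bp wide in the Wild-Type list and 1404 bp in the Mutant list, and which the nearest-start rule gave to Setd6. The Eef1a1 window (chr9:78481725-78481974, minus strand) holds 2 GGGCGG matches in a member of 1260 bp and 1167 bp.

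Over all 812 windows at members the median G and C content was 59.6% and the median ratio of observed to expected CpG was 0.65. Windows at shared peaks within 1 kb of a gene start stood at 62.0% and 0.796, and windows at no peak of either list at 48.0% and 0.227. The 1839 windows at the remaining peaks of the lists were close to those at members, with 58.4%, 0.631 and GGGCGG in 52.5%. GGGCGG was found in 54.3% of the windows at members and in 32.7% of all 32851 windows, TATAAA in 6.4% and 12.4%, and TGACGT in 7.27% and 6.47%. The E-box CACGTG stood in 7.14% against 6.02%, and the AP-1 motif TGANTCA in 4.8% against 6.75%, both strands searched in each case. A match describes the letters and says nothing of binding.

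Members at RefSeq windows overlapped an exon in 79.8% of cases and had a median width of 574 bp in the Wild-Type list, against 13.0% and 416 bp for the 7458 members off these windows. Over all members, 1527 (18.7%) overlapped an annotated exon by at least 1 base, 3459 (42.4%) lay in an intron and 3166 (38.8%) between genes. By the midpoint of the peak the shares were 10.6%, 50.3% and 39.1%. Exons made up 10.5% of the annotated gene span. That base leaves out the DNA between genes, so it cannot be set beside these shares, which count intergenic members. The exon share of shared peaks within 1 kb of a gene start was 93.3%, a set that lies at gene starts by its rule, while distal peaks found in a single list had 10.8% (Wild-Type list) and 9.65% (Mutant list).

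**Figure D1:**
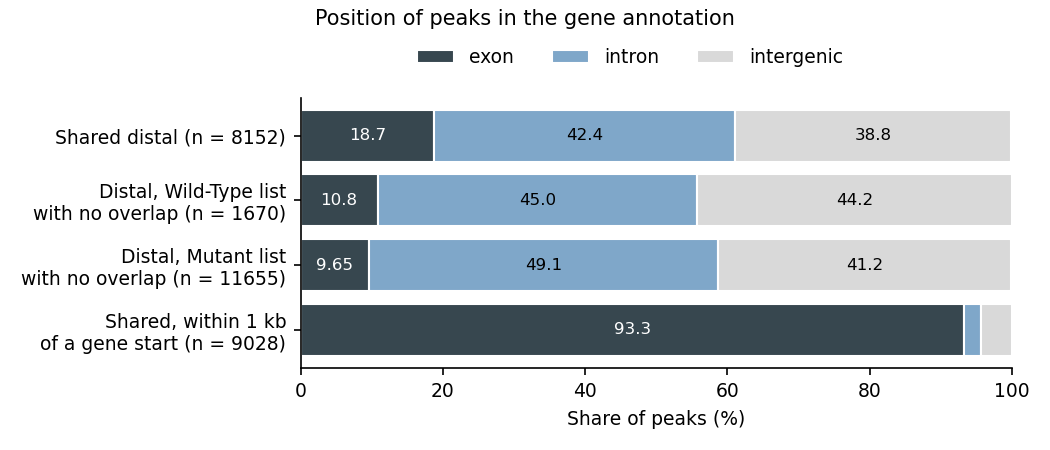
Share of peaks (horizontal axis, %) that overlapped an exon, lay in an intron or lay between genes, for shared distal peaks and the other peak sets (rows, n = number of peaks). Shared distal peaks had 18.7% in exons, between the distal peaks of a single list (10.8% and 9.65%) and the shared peaks near gene starts (93.3%).

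The members lay a median of 18391 bp from the nearest gene start of the count tables, and the middle 50% of them between 7527 and 41774 bp. There were 1317 members (16.2%) at 1001 to 5000 bp, 2983 (36.6%) at 5001 to 20000 bp, 2218 (27.2%) at 20001 to 50000 bp and 1026 (12.6%) at 50001 to 100000 bp. Beyond that stood 604 members up to 500000 bp and 4 farther out. The 2 farthest lay in introns of Rbfox1, which encodes a neuronal splicing regulator, at chr16:6889335-6889542 (819524 bp from any gene start) and chr16:7099998-7100273 (608793 bp). The next were an intronic pair at chr4:77647535-77647914 (564041 bp) and chr4:77649675-77650215 (561740 bp) and an intergenic peak at chr8:102000305-102001012 (460597 bp). At the threshold, the members just outside were peaks 1001 bp from Git1, 1001 bp from Rtbdn and 1002 bp from Polr2h. Overlapping peaks just inside it lay 999 bp from Eno2, 997 bp from Ccdc6 and 996 bp from Gm44770.

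Against the nearest gene with a tested RNA, 2945 members (36.1%) lay inside the gene, 3303 (40.5%) upstream of its start and 1904 (23.4%) past its end. The sex chromosomes held 154 members on X (1.89%) and 8 on Y, of which 7 were intergenic.

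Most members stood alone. With neighbours joined when the gap between them was at most 10 kb, 7098 members had no partner, and 1054 (12.9%) fell into 499 groups, of which 451 were pairs, 42 held 3 members, 4 held 4 and 2 held 5. Shared peaks within 1 kb of a gene start were grouped at a similar share (10.8%, 461 groups). The number rested on the gap, at 213 groups with a gap of 5 kb and 1057 with 25 kb.

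A group of 5 lay at chr11:3123600-3135160 around Pisd-ps1, a pseudogene, with 4 members on exons. The other group of 5 lay at chr9:56635862-56658520, all in introns and nearest to Gm26868, a predicted gene. At chr11:69409006-69419030, within 5148 bp of the start of the histone H3K27 demethylase gene Kdm6b, 4 members lay together. The 4 members at chr1:74807973-74830453, all intergenic, were split between the Wnt ligand gene Wnt10a and Cdk5r2, which encodes an activator of the neuronal kinase Cdk5. The others of 4 lay at chr1:85591069-85593342 (Sp110) and chr13:21160924-21173180 (Trim27).

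Widths were close between the lists, with broad scatter. The median width was 427 bp in the Wild-Type list (middle 50% from 336 to 561) and 480 bp for the overlapping Mutant peaks (360 to 629). The median ratio of Mutant to Wild-Type width was 1.08, with 80% of members between 0.647 and 1.73 in ratio. The Mutant peak was wider for 4978 members (61.1%), narrower for 3152 (38.7%) and equal for 22. Shared peaks within 1 kb of a gene start were wider in both lists (626 and 681 bp) with a ratio of 1.07. As the Mutant list also holds more peaks, and no source used here gives the depths, genotype and peak calling cannot be told apart in these widths.

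The ratio fell with the Wild-Type width, from 1.32 in the narrowest 25% of members (139 to 336 bp) to 1.13, 1.04 and 0.974 in the widest (562 to 2881 bp). Members were sorted by 1 of the 2 values in the ratio, so a slope of this kind is built into the comparison. Overlap followed the same order, since 70.3% of the narrowest 25% and 93.6% of the widest 25% covered at least 50% of each other. Over all members this share was 84.2% (6863 peaks), 2892 members (35.5%) lay entirely inside a Mutant peak, and 10 had the same start and end. Among all 9822 distal Wild-Type peaks, the share with any overlap rose from 67.3% among the narrowest 25% to 95.9% among the widest. Members on exons were wider (523 and 571 bp) than those in introns (405 and 456 bp) or between genes (417 and 469 bp).

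**Figure D2:**
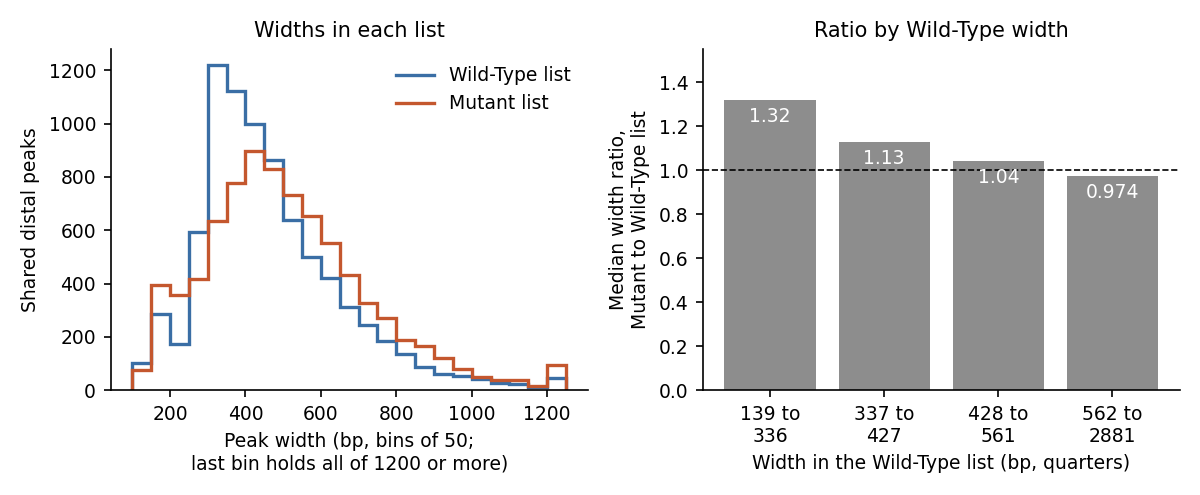
Left, number of shared distal peaks (vertical axis) by width (bp) in the Wild-Type and Mutant lists. Right, median ratio of Mutant to Wild-Type width (bars; dashed line at 1) in 4 equal parts by Wild-Type width, falling from 1.32 to 0.974.

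The widest member lay at chr9:124422898-124425778 on an exon inside Ppp2r3d (2881 bp in the Wild-Type list and 2945 bp in the Mutant list). It was followed by peaks nearest to Cckar (1731 and 1697 bp, chr5:53588992-53590722), Phyhipl (1637 and 1497 bp, chr10:70598453-70600089), Arap3 (1598 and 710 bp) and Mpzl1 (1570 and 1673 bp, chr1:165641437-165643006). The largest ratios came from narrow Wild-Type peaks and were 8.92 at Chd9 (162 bp against 1445 bp, chr8:90829552-90829713), 7.75 at Kdm6b (208 against 1611 bp, chr11:69418823-69419030) and 7.26 at Chd4 (183 against 1329 bp, chr6:125089007-125089189). The smallest were 0.15 in an intron of Gli2, which encodes a transcription factor of hedgehog signalling (1053 against 158 bp), 0.197 in an intron of Kdm6b (833 against 164 bp) and 0.21 on an exon inside Amotl1 (710 against 149 bp). Kdm6b thus had members at both extremes, 1 in its intron and 1 upstream. At Chd4 the same Mutant peak of 1329 bp also overlapped another member (451 bp, chr6:125089618-125090068). The ratio of 7.26 therefore sets only part of the Wild-Type signal there against a joined Mutant peak, and is not a measure of widening.

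For RNA, each member was assigned to the nearest start among the 18050 genes tested, and 5064 genes (28.1%) received at least 1. Of these, 3307 had 1 member and 1757 had 2 or more, and 5840 members (71.6%) lay within 100 kb of their gene. The level in CPM (counts scaled to library size, TMM) per kilobase of exon had a median of 4.43 in Wild-Type for the assigned genes and 3.46 for all genes tested, and rose with the number of members, from 3.83 with 1 to 7.91 with 5 or more. Of the 25% of genes highest in this level 33.5% had a member, against 24.8% of the lowest 25%. Genes with more members were also longer, with a median span of 27.8 kb at 1 member and 89.0 kb at 5 or more (20.7 kb over all genes).

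The genes with the most members were Opcml, Lrrc4c and Gm37844 with 11 each, Apaf1 with 10, Rab3c, Celf2, Nrxn3 and Il12a with 9, and Atp2b1 and Celf4 with 8. Opcml and Lrrc4c encode neuronal adhesion proteins, and 8 and 7 of their members were intronic. Opcml ran from 155 to 289 CPM in Wild-Type (median 221) and from 143 to 204 CPM in Mutant (median 169). Its log2 fold change was -0.41 (SE 0.13, adjusted p 0.0925 in edgeR's quasi-likelihood test). Lrrc4c had 95.4 to 165 CPM in Wild-Type (median 127) and 64.4 to 116 CPM in Mutant (median 96.6), with a log2 fold change of -0.46 (SE 0.13, adjusted p 0.084 in edgeR). Of the 7 Mutant libraries, 2 lay below the lowest Wild-Type library for Opcml and 3 for Lrrc4c, and neither gene passed the threshold in edgeR. The adjusted p in DESeq2 was 0.0319 for Opcml and 0.022 for Lrrc4c.

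Rab3c, which encodes a GTPase of synaptic vesicles, had 476 to 649 CPM in Wild-Type and 561 to 962 CPM in Mutant (log2 fold change 0.40, SE 0.12, adjusted p 0.0824 in edgeR). Its adjusted p in DESeq2 was 0.0226. Atp2b1, the gene of a plasma membrane calcium pump, stood at a log2 fold change of -0.47 (SE 0.20, adjusted p 0.181) with 7 of its 8 members between genes. Celf2 (-0.14), Celf4 (-0.06), Nrxn3 (0.02), Apaf1 (0.40), Il12a (-0.70) and Gm37844 (0.28) had adjusted p from 0.346 to 0.911 in edgeR. Nearest start is a rule of distance: the 10 members given to Apaf1 all lay past its end, up to 505626 bp from its start, inside other genes.

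Among the genes with the highest CPM, Camk2n1, which encodes an inhibitor of the calcium kinase CaMKII, had 4 members, all intergenic, at 6279 to 50248 bp from its start. Its level ran from 1230 to 3430 CPM in Wild-Type (median 2650) and from 841 to 2140 CPM in Mutant (median 1320), a log2 fold change of -0.84 (SE 0.25, adjusted p 0.0883 in edgeR). In DESeq2 its adjusted p was 0.0131. Camk2a and Mbp had 2 members each and Meg3 had 1. The log2 fold change was -0.73 for Camk2a, the CaMKII alpha subunit (adjusted p 0.164), and 0.35 for the noncoding RNA Meg3 (adjusted p 0.108), both in edgeR. In DESeq2 the adjusted p was 0.0668 for Camk2a and 0.0498 for Meg3. Mbp, the myelin basic protein gene, ran from 1710 to 2900 CPM in Wild-Type and from 994 to 3850 CPM in Mutant.

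In edgeR (two-sided, adjusted p below 0.05), 25 of the 5064 assigned genes rose and 22 fell in Mutant, 47 in all (0.928%). The background over all 18050 genes was 0.97% in either direction, 0.587% higher and 0.382% lower, so the share among assigned genes was near the background. Count and split both rested on the fit: DESeq2 called 206 assigned genes higher and 307 lower, and leaving out any 1 of the 14 libraries moved the count by over 1.5 times. It was 218 higher and 411 lower without Wild-Type 4, 160 and 183 without Mutant 6, and 4 and 0 without Mutant 1, Mutant 7, Wild-Type 5 or Wild-Type 6. At unadjusted p under 0.05 stood 26.3% of the assigned genes and 22.2% of all genes. Groups that did not overlap were found for 36 assigned genes (0.711%), against 0.715% of all genes. The p-values rest on the spread between 7 mice per genotype, as the protocols describe them.

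Of the risen genes, Sycp2 and Rnf17, which encode proteins of meiotic chromosomes and of germ cells, had their members far off. The Sycp2 members lay 79869 and 142816 bp from its start, past its end, in an exon and an intron of the annotation. Sycp2 ran from 0.908 to 1.92 CPM in Wild-Type (median 1.35) and from 4.64 to 6.29 CPM in Mutant (median 5.87), and rose by a log2 fold change of 2.02 (SE 0.16, adjusted p 3.27e-05 in edgeR). Rnf17, with 1 member 233975 bp upstream, ran from 0.362 to 1.09 CPM in Wild-Type (median 0.705) and from 2.13 to 3.87 CPM in Mutant (median 2.74), a log2 fold change of 2.05 (SE 0.24, adjusted p 0.000994 in edgeR). Every Mutant library was above every Wild-Type library for both genes. Neither had a peak of either list within 1 kb of its own start.

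Plcg2, the phospholipase C gamma 2 gene, had 4 members upstream, at 27411 to 118654 bp. It ran from 3.65 to 5.71 CPM in Wild-Type (median 4.6) and from 7.51 to 10.1 CPM in Mutant (median 8.6), with no overlap, and rose by 0.88 on the log2 scale (SE 0.11, adjusted p 0.00159 in edgeR). Its nearest member was 708 bp wide in the Wild-Type list and 1330 bp in the Mutant list. Sycp2, Rnf17 and Plcg2 kept their calls with each of the 14 libraries left out in turn.

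Smaller rises were called as well. Stag1, a subunit of cohesin, carries the member whose promoter window is printed above. It ran from 28.5 to 32.8 CPM in Wild-Type (median 30.5) and from 33.5 to 41.5 CPM in Mutant (median 36.6), a log2 fold change of 0.27 (SE 0.05, adjusted p 0.0408 in edgeR). Map3k4 (0.30) and Scaf11 (0.25) rose with groups apart too. The glutamate transporter gene Slc1a6 (0.83), the miR-124 host gene Mir124-2hg (0.38), the retinoid receptor gene Rxra (0.36) and the SUMO protease gene Senp1 (0.33) rose with 6 of 7 Mutant libraries above all Wild-Type libraries. Adjusted p in edgeR ran from 0.029 for Map3k4 to 0.0461 for Senp1 among these smaller rises. With 1 library left out in turn, the call of Stag1 held 3 times in 14, with a highest adjusted p of 0.094 in edgeR. The call held 7 times for Map3k4, 5 for Slc1a6, 4 each for Scaf11, Mir124-2hg and Rxra, and 3 for Senp1.

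Among the genes that fell, Cx3cl1, the neuronal chemokine fractalkine, had a member of 575 bp and 843 bp in its intron, 1365 bp from its start (chr8:94773374-94773948). It ran from 644 to 1170 CPM in Wild-Type (mean 963) and from 451 to 786 CPM in Mutant (mean 596), and the groups overlapped (log2 fold change -0.69, SE 0.15, adjusted p 0.0461 in edgeR). Lag3, an immune receptor gene, had a member of 1037 bp and 1059 bp over its last part (chr6:124903715-124904751). It fell from 5.92 to 8.06 CPM in Wild-Type (median 6.97) to 2.4 to 5.08 CPM in Mutant (median 3.52), with no overlap (log2 fold change -0.95, SE 0.15, adjusted p 0.0197 in edgeR). Tnnc1, a troponin gene with a member 1095 bp upstream, fell by 1.79 on the log2 scale (SE 0.34, adjusted p 0.0375 in edgeR). It ran from 1.8 to 16.4 CPM in Wild-Type (median 8.7) and from 1.99 to 3.07 CPM in Mutant (median 2.76), so that 1 Wild-Type library lay below all Mutant libraries. Wnt10a had 2 of the 4 grouped members on chromosome 1, at 16457 and 25271 bp, and fell from a median of 11.2 CPM in Wild-Type (2.73 to 19.0) to 3.35 CPM in Mutant (1.77 to 5.43), a log2 fold change of -1.73 (SE 0.38, adjusted p 0.0482 in edgeR).

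The other named falls were Olfm2 (-0.70), Plekha2 (-0.73), Baalc (-0.55), Sh3bgrl3 (-0.44), Rasa2 (-0.38), Nudt3 (-0.35), Mrps21 (-0.25), Vps37c (-0.24) and the mitochondrial thioredoxin gene Txn2 (-0.20), as log2 fold changes with adjusted p from 0.0332 to 0.0466 in edgeR. Lag3 was called 9 times in these 14 fits and the other named genes that fell 2 to 5 times. Of the 542 tested genes with a RefSeq start at a member, 1 rose (Stag1) and 1 fell (Olfm2), 0.369% against the background of 0.97%.

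The more members a gene had, the lower its median log2 fold change. It was 0.028 for the 12986 genes with 0 members, 0.011 with 1, -0.038 with 2, -0.09 with 3 to 4 and -0.14 for the 143 genes with 5 or more, of which 37 were higher and 106 lower in Mutant. Only 2 of these 143 passed the test, both lower (1.4%). All genes tested had a median of 0.017. Among the 25% of genes highest in level per kilobase the median was -0.052, and -0.15 for the 263 genes there with 3 or more members.

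Excitatory neuron markers had a median log2 fold change below 0, with the same value over all 17 markers and over the 9 with a member (-0.73). Their summed level ran from 3460 to 9670 CPM in Wild-Type (median 7400) and from 1310 to 7580 CPM in Mutant (median 4400). Of the 17 markers 0 passed the test in edgeR, and 7 stood at unadjusted p under 0.05, beside 22.2% of all genes. Thalamic markers ran from 133 to 593 CPM and from 199 to 1700 CPM. Fewer cells of a type and less RNA per cell cannot be told apart in whole tissue. Without Mutant 1 and Mutant 4, the libraries lowest in excitatory markers, the median was -0.048 for genes with 3 to 4 members and -0.11 for those with 5 or more. Both libraries left out were Mutant, and Wild-Type 4, next lowest with a mean log2 CPM of 5.473 in these markers, was kept. The part of excitatory cell content in the trend with member number was not tested.

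**Figure D3:**
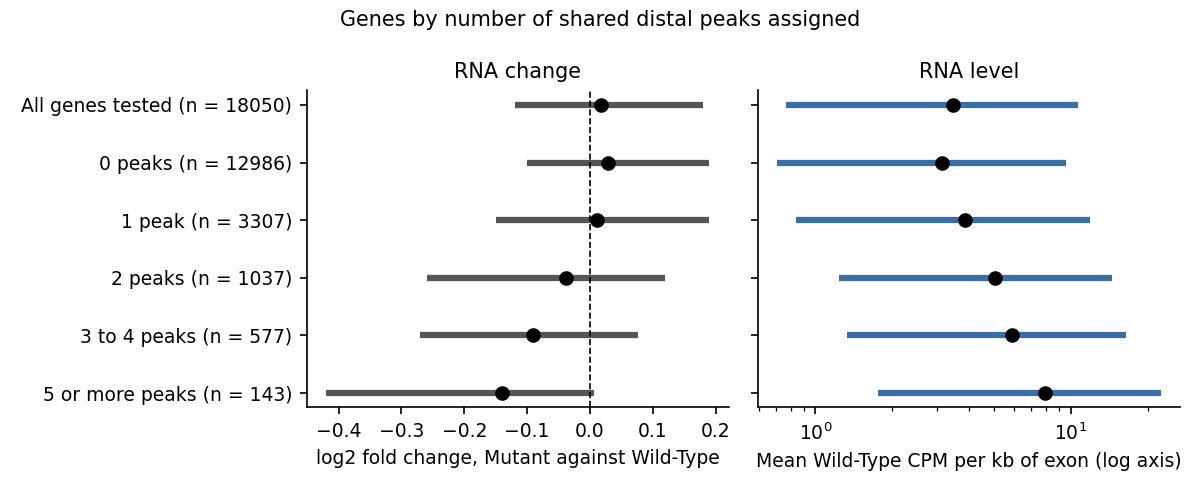
Genes grouped by number of assigned shared distal peaks (rows, n = genes). Left, median (point) and middle 50% (line) of the log2 fold change of RNA, Mutant against Wild-Type, going from 0.028 at 0 peaks to -0.14 at 5 or more; right, the same for mean Wild-Type CPM per kilobase of exon, on a log axis, going from 3.14 to 7.91.

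Nearly all activity-regulated genes had a member assigned, some of them at a long distance. Of 17 such genes 15 (88.2%) were the nearest gene of at least 1 member, against 28.1% of all genes tested, with 29 members between them. Of the 29 members, 18 lay between genes, 6 in introns and 5 on exons. By side, 18 were upstream of the start, 7 past the end and 4 inside the gene, and 10 lay within 10 kb of the start. The median width of the 29 was 526 bp in the Wild-Type list and 589 bp in the Mutant list, against 427 and 480 bp over all members.

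Egr3, which encodes a zinc-finger transcription factor, had 4 members upstream, at 1525, 55490, 75156 and 82012 bp. The nearest of them was 1007 bp wide in the Wild-Type list and 744 bp in the Mutant list (chr14:70074672-70075678). The neurotrophin gene Bdnf had members at 54644 and 114940 bp upstream and at 3218 bp inside the gene, the last of which measured 545 and 852 bp (chr2:109677918-109678462). Arc, the gene of a capsid-like regulator of synaptic strength, had 1 member 6331 bp upstream (479 and 470 bp, chr15:74678901-74679379). It had 1 more past its end, 77836 bp from its start. Fos had members 17947 bp upstream (839 and 945 bp, chr12:85455105-85455943) and 11876 bp downstream of its start (626 and 705 bp, chr12:85485766-85486391). Fosb had 1 on an exon 9638 bp upstream and 1 on an exon 1277 bp into the gene (816 and 621 bp, chr7:19307959-19308774). Egr1 had 3 members, at 4128, 24718 and 27326 bp. Jund and Npas4 had none.

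**Figure D4:**
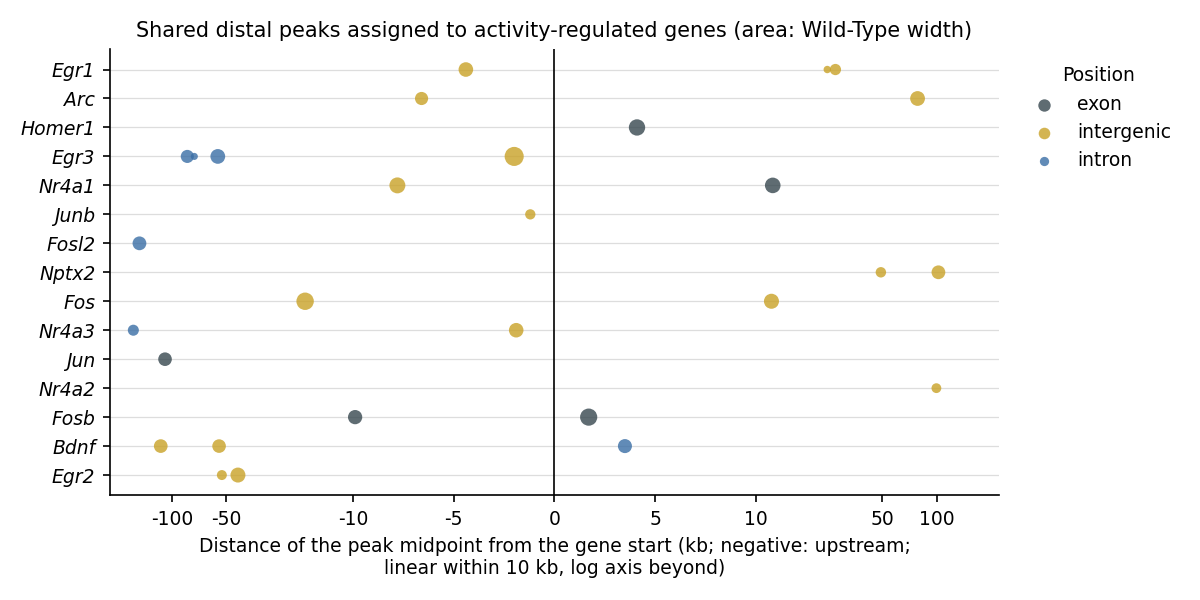
Distance (kb, linear within 10 kb of the start and on a log axis beyond) of the midpoint of each of 29 shared distal peaks from the start of the activity-regulated gene it was assigned to (rows); colour gives the position and area the Wild-Type width. Of the 29, 18 lie upstream of the start, and Egr3 has the most with 4.

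All 17 activity-regulated genes had a fitted log2 fold change below 0 in Mutant. In edgeR 0 of them passed the test, beside 0.97% of all genes. At unadjusted p under 0.05 stood 14 of them, beside 22.2% of all genes. DESeq2 called 11 of them lower, beside 8.33% of all genes called in either direction. The median log2 fold change was -0.88 over the list and -0.93 over the 15 with a member. Fosb, an AP-1 subunit, ran from 27.4 to 71.1 CPM in Wild-Type (median 39.0) and from 7.19 to 25.6 CPM in Mutant (median 20.8), a log2 fold change of -1.16 (SE 0.26, adjusted p 0.0506 in edgeR), and its groups were apart. Arc ran from 147 to 621 CPM in Wild-Type (median 288) and from 26.7 to 159 CPM in Mutant (median 113), a log2 fold change of -1.78 (SE 0.47, adjusted p 0.0721), with 6 Mutant libraries below the lowest Wild-Type library. Egr1 ran from 326 to 779 CPM (median 478) and from 74.5 to 341 CPM (median 228), a log2 fold change of -1.20 (SE 0.30, adjusted p 0.0643 in edgeR).

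Egr3 ran from 114 to 400 CPM in Wild-Type (median 280) and from 8.49 to 165 CPM in Mutant (median 114), with a log2 fold change of -1.50 (SE 0.47, adjusted p 0.102 in edgeR). Homer1 ran from 135 to 478 CPM (median 283) and from 39.5 to 249 CPM (median 138), and Nr4a1 from 88 to 279 CPM (median 124) and from 15.6 to 99.7 CPM (median 72.2), with log2 fold changes of -1.16 (adjusted p 0.101) and -1.19 (0.0953). The groups overlapped for Egr3, Homer1 and Nr4a1. Nptx2, a synaptic pentraxin gene, ran from 34.7 to 93.5 CPM (median 75.9) and from 38.5 to 49.0 CPM (median 47.6), and 6 Wild-Type libraries lay above all Mutant libraries (log2 fold change -0.74, adjusted p 0.0516 in edgeR). Bdnf also had 6 Wild-Type libraries above all Mutant libraries (-0.74, adjusted p 0.0632). Egr2 (-1.76), Fosl2 (-0.88), Junb (-0.93), Fos (-0.87), Nr4a3 (-0.84), Nr4a2 (-0.20) and Jun (-0.20) had adjusted p from 0.0703 to 0.794, and Npas4 (-0.78) and Jund (-0.15), with 0 members, 0.236 and 0.171.

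**Figure D5:**
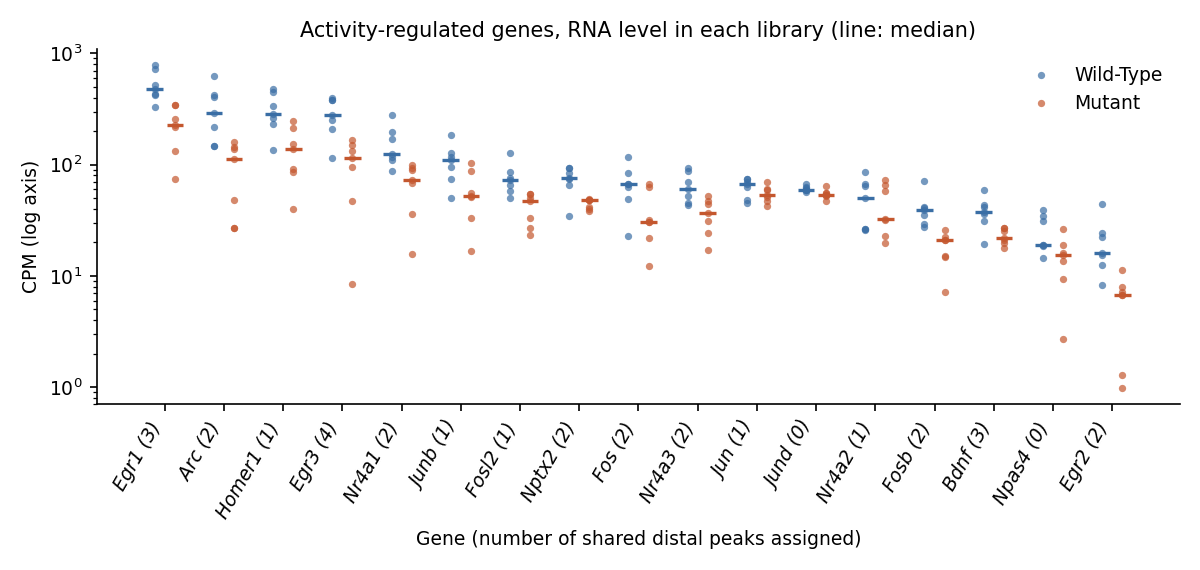
RNA level (CPM, log axis) of 17 activity-regulated genes in each of 7 Wild-Type and 7 Mutant libraries (points; lines are medians), with the number of assigned shared distal peaks in brackets. Fosb has groups that do not overlap, and Egr3 has a Mutant library at 8.49 CPM.

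In 1 library, Mutant 1, the level was the lowest of the Mutant group for 11 of the 17 genes, Fosb and Arc among them, and Mutant 4 was lowest for Egr2, Egr3 and Homer1. These are the libraries lowest in excitatory markers, whose mean log2 CPM was 4.982 and 4.154, against 5.801 to 6.37 in the other Mutant libraries and 5.473 to 6.819 in Wild-Type. In the Wild-Type group, Wild-Type 1 was lowest for Fos, Fosb, Fosl2, Jun, Junb, Egr2, Arc, Npas4, Nr4a1 and Nr4a3, although its mean in excitatory markers was 6.802. Wild-Type 4, at 5.473, was lowest for Egr1, Egr3, Bdnf, Homer1 and Nptx2. Without Mutant 1 and Mutant 4, 16 of the 17 genes had a log2 fold change below 0 with a median of -0.72. In that fit 0 passed the test in edgeR, and Nr4a2 stood at 0.07. Without Wild-Type 4, 10 passed, beside 9.18% of all genes, and without Mutant 6, 5 passed, beside 6.09% of all genes.

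The synapse and transcription factor lists had smaller shares of genes with a member. Of 31 synapse genes 21 (67.7%) had one, with 53 members and a median log2 fold change of -0.26 over the 21. In edgeR 0 of the 31 passed, and 13 stood at unadjusted p under 0.05, beside 22.2% of all genes. DESeq2 gave adjusted p of 0.035 for Grin2a and 0.0248 for Homer1. The NMDA receptor gene Grin2a and the AMPA receptor gene Gria1 had 5 members each and the scaffold gene Dlg2 had 6, with log2 fold changes of -0.73, 0.06 and -0.29 (adjusted p 0.121, 0.708 and 0.229 in edgeR). Of 25 neuronal transcription factor genes 14 (56.0%) had a member. In edgeR 0 of the 25 passed, and 10 stood at unadjusted p under 0.05, beside 22.2% of all genes. Tcf4 and Zeb2 had 5 each, with log2 fold changes of -0.46 and -0.41 (adjusted p 0.222 and 0.193 in edgeR), and the 5 of Zeb2 were all intergenic. Nfix and Pou3f1 had 3 each (-0.66 and -0.56).

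Of 58 Wnt and beta-catenin pathway genes 19 (32.8%) had a member, of which 1 fell, Wnt10a, while Tnks rose without one. Ctnnb1, the beta-catenin gene, had 4 members, 3 of them intronic, and a log2 fold change of 0.16 (adjusted p 0.212 in edgeR). Axin2 and Dkk3 had 3 and 2 (0.09 and -1.36, adjusted p 0.625 and 0.0864 in edgeR). DESeq2 gave Dkk3 an adjusted p of 0.0209. Of 37 cytoskeleton genes 10 (27.0%) had a member, with 6 at Ank3 and 5 at Cttn. In edgeR 0 of the 10 passed (1 at unadjusted p under 0.05, beside 22.2% of all genes), while Arpc3 fell without a member. Of 11 CTCF and cohesin genes 2 had a member, of which Stag1 rose. Of 7 genes listed with the ChAHP complex (Adnp, Chd4, Cbx1, Cbx3, Cbx5, Pogz and the Adnp paralog Adnp2) 3 had one. This list is wider than the subunits of the complex. In edgeR 0 of the 7 passed, and 3 stood at unadjusted p under 0.05, beside 22.2% of all genes. The log2 fold change was 0.22 for Cbx5 (adjusted p 0.0641) and -0.17 for Adnp2 (0.162 in edgeR). DESeq2 gave Cbx5 an adjusted p of 0.00812. The 54 tested clustered protocadherin genes and the 5 blood markers had 0 members.

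Among cell type markers, members stood at 9 of 17 excitatory neuron, 4 of 18 interneuron, 2 of 11 astrocyte, 5 of 12 oligodendrocyte lineage, 3 of 11 microglia, 2 of 9 endothelial and mural, 5 of 10 striatal, 3 of 7 thalamic and 2 of 6 choroid plexus genes. In edgeR 0 of the markers in these lists passed, beside 0.97% of all genes tested. At unadjusted p under 0.05 stood 7, 4, 3, 0, 5, 0, 0, 4 and 2 markers of the lists, in the same order, beside 22.2% of all genes. Markers of cortical excitatory neurons, interneurons and glia were all detected, as the frontal cortex label implies. Striatal and thalamic markers were detected too and differed widely between libraries. The summed striatal markers ran from 287 to 1870 CPM in Wild-Type and from 235 to 2530 CPM in Mutant. The thalamic marker Tcf7l2 ran from 3.46 to 48.1 CPM in Wild-Type and from 4.4 to 261 CPM in Mutant. The part of tissue content in the RNA changes was not tested. The log2 fold change was -0.93 for Mef2c with 2 members (adjusted p 0.198 in edgeR), 2.30 for Tcf7l2 with 3 (0.126) and 0.59 for Rora with 1 (0.27). The interneuron genes Adarb2, Nxph1 and Npy had 3, 2 and 1 members and log2 fold changes of 0.48, 0.37 and -0.96 (adjusted p 0.169, 0.108 and 0.111), and of the astrocyte genes Slc1a2 had 2 members and -0.33 (0.162) and Id4 had 1 and 0.15 (0.645 in edgeR). The median log2 fold change over all 11 astrocyte markers was 0.15. DESeq2 gave adjusted p of 0.0411 for Tcf7l2 and 0.0231 for Npy.

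The RNA of the remaining genes with printed windows did not pass the test. Lhx2 ran from 34.1 to 79.5 CPM in Wild-Type (median 55.9) and from 17.1 to 76.5 CPM in Mutant (median 40.0), a log2 fold change of -0.52 (adjusted p 0.274 in edgeR). Ank2 (-0.08), Ndrg4 (-0.07) and Eef1a1 (0.06) had adjusted p from 0.593 to 0.672, with standard errors of 0.07 to 0.08.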

How the data were processed

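RNA values were the authors' deposited raw counts per gene, with a table for each library. Per the file headers, exons were counted with featureCounts 2.0.1, by gene ID, against Ensembl GRCm38 release 102 with strand ignored (setting 0), so reads of overlapping antisense genes cannot be told apart. Peaks were the authors' 2 deposited coordinate lists on mm10 (Bowtie2 2.4.4 and MACS3, per the submitters' processing notes); no source used here gives the caller settings or the libraries merged. Of 55487 genes, 55141 IDs had a symbol.

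Gene starts were the outermost base of each gene in the count tables, and a peak overlapping any exon by 1 base was called exonic. Genes were kept by filterByExpr (18050), TMM-scaled and fitted in edgeR 4.0.16 (quasi-likelihood test, genotype as the single term, Benjamini-Hochberg over all genes, threshold 0.05). CPM values are TMM-scaled. Each of 91 library pairs differed by at least 9.38 chi-square units per degree of freedom. Interval and test code was tested on simulated data. RefSeq sequences came from GRCm38.p6. The members and gene lists were chosen with earlier results of these data known.

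Named peaks were the 5 widest, 5 largest clusters, 5 farthest, and 3 at each end of the width ratio and at each side of the distance threshold. Named genes were the 12 called genes with the smallest p per direction, the 10 with the most members, the 5 with the highest CPM and up to 4 per list; list genes with a change near 0 were given by counts, and Wnt10a, Jund, Npas4, the lower-ranked activity-regulated genes and the genes with printed windows were added. Some genes that the rule names are not reported here. The alternatives used DESeq2 1.42.0, edgeR with DESeq2 size factors, other filters, thresholds, distances, gaps and assignments, a replicate block and each library left out.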

Additional observations from a re-analysis of the deposited data

Results flagged for a closer look

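In 9 of the 158 groups of 7 libraries behind the genes given above, 1 library stood apart from the others by Dixon's ratio on log2 CPM (critical value 0.568), and chance alone gives about 1 such group in 20. Mutant 4 was low for Egr3 (8.49 CPM, the others 47.5 to 165) and Olfm2 (69.1 CPM, the others 79.3 to 84.4), and high for Adarb2 (49.5 CPM, the others 22.3 to 31.3) and Rora (303 CPM, the others 71.3 to 120.0). Wild-Type 4 was low for Grin2a (76.7 CPM, the others 146 to 229), Il12a (0.198 CPM, the others 0.961 to 2.09) and Nptx2 (34.7 CPM, the others 65.2 to 93.5). Mutant 6 was low for Mbp (994 CPM, the others 2220 to 3850), and Wild-Type 7 high for Rab3c (649 CPM, the others 476 to 543).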

How the results depend on the processing

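The number of members moved by less than 1.5 times under each alternative run, from 6835 peaks beyond 5000 bp from gene starts to 8690 with the starts of tested genes only. The exon share became 17.2% beyond 2500 bp from gene starts, 15.8% beyond 5000 bp, 13.0% off RefSeq windows (added after seeing the data) and 10.6% by the midpoint of the peak. The intron share became 43.9% beyond 5000 bp, 45.6% off RefSeq windows and 50.3% by the midpoint, and the intergenic share 40.3% beyond 5000 bp and 41.4% off RefSeq windows. Groups of members numbered 213 with a gap of 5 kb and 1057 with 25 kb. The median width ratio stayed above 1 in the 3 alternatives run.

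The called genes were 175 of all genes and 47 of the assigned genes in edgeR. They were 1503 and 513 (10.1% against 8.33% of all genes) with DESeq2, 106 and 24 with no filter on low counts, 1195 and 403 (7.96% against 6.62%) at an adjusted p under 0.1, and 13 and 4 when Mutant 1 and Mutant 4, lowest in excitatory markers, were left out (added after seeing the data). With the replicate number as a block 10 and 4 were called. Deviations of same-numbered libraries correlated from -0.284 to 0.334. The labels name no pairing, and whether equal numbers mark a shared litter or batch was not tested. Leaving out 1 library gave from 11 to 1672 of all genes and from 4 to 629 of the assigned genes. Other assignments (100 kb, gene body, other distances) left the count of assigned genes called within 1.5 times. Signs changed for 3 genes near 0: Celf2 (0.03) and Nr4a2 (0.07) without these 2 libraries, and Nrxn3, which ran from -0.03 to 0.05 with 1 library left out. Peak depth is unknown, so a peak missing from a list may have been under its detection limit.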
